A study of Mus musculus with 2 samples.

Results

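Genes of miR-143, miR-145, miR-199 and miR-214 were measured in adrenal glands taken from male mice of the F1 hybrid B6CASTF1/J at postnatal day 14. The 7 genes, out of 2202 miRNA genes in the count files, are those with the symbols Mir143, Mir145a, Mir145b, Mir199a-1, Mir199a-2, Mir199b and Mir214 in GENCODE M21, and all 7 have a row. They were chosen as miRNAs of smooth muscle, pericytes, capsule and fibroblasts. The series has 1 group of 2 microRNA-seq libraries, biological replicates 1 and 2, with no treatment, genotype or age to compare, so levels and the difference between the libraries are described. The biosample of each library names 3 males, and both carry the same donor record, and the labels do not say whether animals were pooled.

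A miRNA gene is transcribed as a long precursor, trimmed to a hairpin and cut to a short mature strand. That strand guides repression of messenger RNAs that match its seed. miR-143 and miR-145 are made from neighbouring hairpins and are known in smooth muscle cells and pericytes, where miR-145 favours the contractile state. miR-199a and miR-214 are made from a non-coding transcript, Dnm3os, that runs opposite to the dynamin gene Dnm3, and are known in mesenchyme and fibroblasts. In a gland such as the adrenal, cells of these kinds are found in the walls of blood vessels, the capsule and the stroma.

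Positions are on mm10. Mir143 lies on chromosome 18 from 61649196 to 61649258 and Mir145a on the same strand from 61647825 to 61647894, with 1301 bases between them. Neither overlaps another annotated gene. The nearest gene upstream on their strand is the long non-coding RNA Carmn, the mouse counterpart of the human miR-143 host gene, which ends 366 bases before Mir143. Mir145b lies elsewhere on chromosome 18, from 69022199 to 69022273, and also overlaps no annotated gene.

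Mir199a-2 (chromosome 1, 162217814 to 162217923) and Mir214 (162223368 to 162223477) both lie in an exon of Dnm3os and opposite an intron of Dnm3, with 5444 bases between them. Mir199a-1 lies on chromosome 9 from 21496495 to 21496564, opposite an intron of the dynamin gene Dnm2. Mir199b lies on chromosome 2 from 32318460 to 32318569, opposite an intron of Dnm1. All 3 Mir199 genes thus lie opposite an intron of a dynamin gene.

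The sequences of the Mir199 genes are shown because mature strands recur among the 3 hairpins, the 3p strand in all 3 and miR-199a-5p in Mir199a-1 and Mir199a-2, which bears on their counts. They are RefSeq sequences on GRCm38.p6, the assembly of mm10, and RefSeq sequences were used for 4 of the 7 genes. Capitals mark bases inside a stretch of 20 or more that another miRNA hairpin also holds.
Mir199a-1: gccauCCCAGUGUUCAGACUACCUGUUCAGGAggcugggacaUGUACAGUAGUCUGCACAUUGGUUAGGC
Mir199a-2: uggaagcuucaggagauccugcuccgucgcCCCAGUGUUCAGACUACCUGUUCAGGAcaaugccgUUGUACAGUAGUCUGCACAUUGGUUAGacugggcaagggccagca
Mir199b: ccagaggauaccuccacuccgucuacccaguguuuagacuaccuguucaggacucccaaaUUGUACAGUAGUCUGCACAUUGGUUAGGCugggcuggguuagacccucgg

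The mature strands that RefSeq gives for these genes and for Mir214 follow, with the seed, bases 2 to 8, in capitals, to show which share a seed. For Mir199b the RefSeq sequences used hold a 3p strand and no 5p strand, so the list is not complete for that gene.
miR-199a-5p: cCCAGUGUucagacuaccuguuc
miR-199a-3p: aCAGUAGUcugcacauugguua
miR-199b-3p: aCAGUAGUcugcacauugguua
miR-214-5p: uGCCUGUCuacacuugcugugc
miR-214-3p: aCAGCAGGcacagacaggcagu

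The mature sequence miR-199a-5p was found in 2 of the 2202 hairpins, Mir199a-1 and Mir199a-2. The sequence of miR-199a-3p was found in 3, those 2 and Mir199b, and miR-199b-3p is the same sequence. The stretch of Mir199b that lines up with miR-199a-5p differs from it by 1 base, C10U counted from the 5′ end of miR-199a-5p, and was found in 1 hairpin. It reads as follows, with the differing base in capitals.
Mir199b stretch: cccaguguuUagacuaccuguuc

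Both strands of Mir214 were found in that hairpin alone. Among the 1679 mature names of the RefSeq table, no gene outside the members had the seed of miR-199a-5p, miR-199a-3p or miR-214-5p. The seed of miR-214-3p was shared with miR-761, whose gene Mir761 had 1 count in replicate 1 and 0 counts in replicate 2.

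Stretches shared between hairpins matter here because reads that map to several places stand in a summary row of the deposited files and in no gene. Of windows of 20 bases along the hairpin, 33.3% were shared with another miRNA gene in Mir199a-1, 17.6% in Mir199a-2 and 11.0% in Mir199b. In Mir199a-1 and Mir199a-2 the shared stretches cover both mature strands whole. A read of exactly miR-199a-5p, or of exactly miR-199a-3p, therefore has more than 1 place to map. For Mir143, Mir145a, Mir145b and Mir214 no window was shared. Mir145a and Mir145b had at most 17 bases in a row in common. Of all 2202 hairpins, 1084 (49.2%) shared such a stretch.

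**Figure D1:**
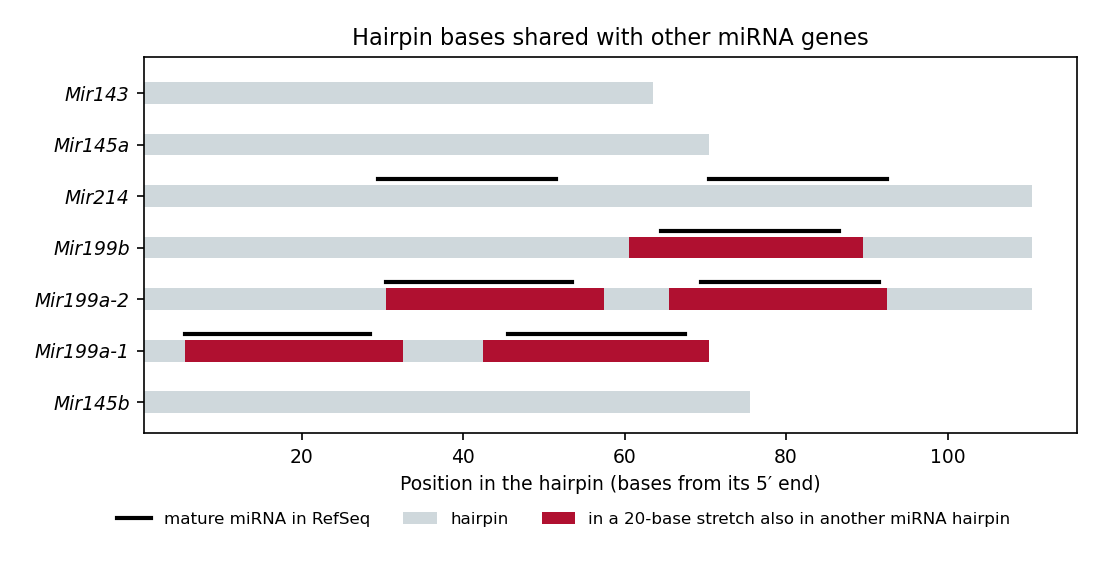
Bases of the 7 member hairpins, from the 5′ end, in grey, with the bases of 20-base stretches that another miRNA hairpin also holds in red and the mature miRNAs of the RefSeq table as black lines. Red covers each mature strand drawn for Mir199a-1, Mir199a-2 and Mir199b and no base of the other 4 hairpins.

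Counts were taken from the sense strand and divided by the total over miRNA genes, and are given as CPM, counts per 1000000 such counts. The totals were 3024662 counts in replicate 1 and 3464837 in replicate 2. The level of 3 counts, at which a gene with no count is drawn, thus equals 0.992 and 0.866 CPM. Means are given with the SD over the 2 libraries (n = 2). Intervals are exact 95% intervals for counting error only. They take reads as independent, which sequencing copies of 1 molecule are not, so they and the p-values below may understate even that error. As each gene is a whole hairpin, its 2 strands were not separated. A read of a mature miRNA spans the molecule, so levels were not divided by length. Divided by hairpin length, all 7 genes kept their place in the order of levels. Levels of different genes are compared as counted, and whether the libraries captured each miRNA equally well was not tested.

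Mir143 was the leading member and, by reads placed in a gene, one of the most abundant miRNA genes of the libraries. It had 155194 counts in replicate 1 and 150848 in replicate 2. Its level was 51309 CPM in replicate 1 and 43537 CPM in replicate 2, a mean of 47423 ± 5496 CPM (SD, n = 2). It ranked 5th in replicate 1 and 6th in replicate 2 of 2202 genes. Its share of all miRNA-gene counts was 5.13% (5.11 to 5.16) in the first library and 4.35% (4.33 to 4.38) in the second. The intervals did not overlap, and replicate 1 was the higher library. Rank and share count only reads placed in a gene. Reads mapping to several places, 27.5% and 29.4% of all reads, are in no gene. How they would change the rank and share of Mir143 was not tested.

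Mir145a, the partner of Mir143 and a regulator of the contractile state of smooth muscle, was far lower. It had 3217 counts in replicate 1 and 3678 in replicate 2, which are 1064 and 1062 CPM, a mean of 1063 ± 1.46 CPM. The libraries were nearly equal, and the gene ranked 72nd and 76th. Its coefficient of variation was 0.138%, and 1.06% of the 189 genes at 100 CPM or more had a smaller one. With 2 libraries so small an SD is itself poorly known, and the counting interval of each value is wider (1027 to 1101 CPM in replicate 1 and 1027 to 1096 CPM in replicate 2).

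Mir145b, a gene with a different hairpin and a related name, had no count in either library. A count of 0 allows a level of up to 0.992 CPM in replicate 1 and 0.866 CPM in replicate 2. No 20-base window of its hairpin occurs in another miRNA hairpin. The rest of the genome was not searched.

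The 2 hairpins of the chromosome 18 pair thus differed widely in counts. Mir145a had 0.0207 counts for each count of Mir143 in replicate 1 (0.0200 to 0.0215) and 0.0244 in replicate 2 (0.0236 to 0.0252). Mir143 was therefore 44.6 ± 5.11 times as high as Mir145a by counts, and 49.6 times per hairpin base. How far this gap in counts is one in amount of the miRNAs was not tested. The intervals of the libraries did not overlap, and Mir145a was the smaller part of the pair in both.

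Mir214, made from Dnm3os and known in mesenchyme and fibroblasts, was next. It had 2125 counts in replicate 1 and 3051 in replicate 2, which are 703 and 881 CPM, a mean of 792 ± 126 CPM. Here replicate 2 was the higher library. Against Mir145a it stood at 0.661 counts for each count in replicate 1 (0.625 to 0.698) and 0.830 in replicate 2 (0.790 to 0.871), below that gene in both.

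Mir199b had 323 counts in replicate 1 and 195 in replicate 2, which are 107 and 56.3 CPM, a mean of 81.5 ± 35.7 CPM. Replicate 1 was the higher library, the reverse of Mir214. Mir199a-2, which shares the Dnm3os transcript with Mir214, had 49 counts in replicate 1 and 61 in replicate 2, which are 16.2 CPM (12.0 to 21.4) and 17.6 CPM (13.5 to 22.6). Those intervals overlap, so no difference was detectable at this depth.

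Mir199a-1 had 2 counts in replicate 1 and 1 in replicate 2. The levels were 0.661 CPM (0.0801 to 2.39) and 0.289 CPM (0.0073 to 1.61), both under the level of 3 counts. The 3 Mir199 genes together held 374 counts in replicate 1 and 257 in replicate 2. By comparison, reads mapping to several places numbered 1972020 in replicate 1 and 2497097 in replicate 2, and how many of them are miR-199a or miR-199b strands was not tested. The levels of the Mir199 genes are therefore those of the reads that could be placed. Whether the genes would stand below Mir214, or keep their order among themselves, with the other reads placed was not tested.

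Within the Dnm3os pair, Mir199a-2 had 0.0231 counts for each count of Mir214 in replicate 1 (0.0170 to 0.0306) and 0.0200 in replicate 2 (0.0153 to 0.0258). These intervals overlap. Mir214 was thus 46.7 ± 4.70 times as high as Mir199a-2 by counts, with the limit on Mir199a-2 just given. Mir199b, at another locus, had 0.152 counts for each count of Mir214 in replicate 1 (0.135 to 0.171) and 0.0639 in replicate 2 (0.0550 to 0.0739), and those intervals do not overlap.

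**Figure D2:**
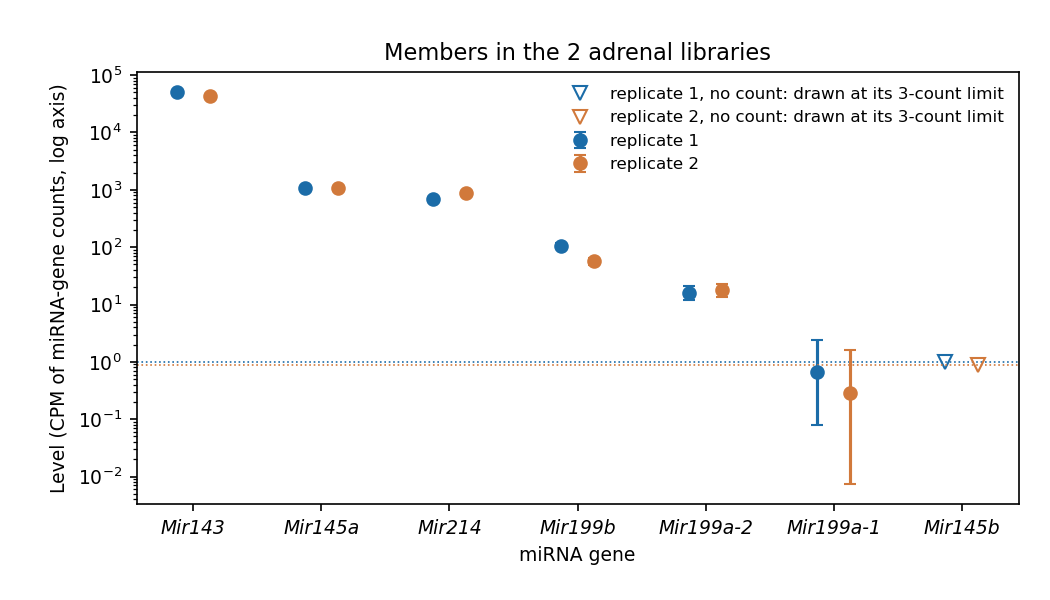
Level of each member in replicate 1 (blue) and replicate 2 (orange), in CPM on a log axis, with exact 95% counting intervals. Dotted lines show the level of 3 counts. The order from Mir143, at 51309 and 43537 CPM, to Mir199a-1, under 1 CPM in both, was the same in both libraries. Mir145b, with no count, is drawn at the level of 3 counts.

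The order of levels was Mir143, Mir145a, Mir214, Mir199b, Mir199a-2, Mir199a-1 and Mir145b in both libraries. Among the 5 genes with 10 or more counts, no neighbours in that order overlapped between their values in the 2 libraries. For the Mir199 genes this is the order of placed reads only, and they differ in how much of their mature strands is shared. Mir199a-1 and Mir145b could not be told apart, since both lie under the level of 3 counts. With detection set at 2 CPM or more in each library, 5 of the 7 members were detected, beside 364 of all 2202 miRNA genes (16.5%). Summed, the 7 genes made up 5.32% (5.29 to 5.35) of the counts of replicate 1 and 4.56% (4.53 to 4.58) of those of replicate 2, a mean of 4.94% ± 0.541. Mir143 made up 96.4% of that sum in replicate 1 and 95.6% in replicate 2, and the other 6 genes held 0.189% and 0.202% of counts. The counts were on the sense strand almost without exception. Mir214 had 1 opposite-strand count in each library and the other 6 genes had 0.

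For each member at 100 CPM or more, the 3 miRNA genes nearest to it in level over the 2 libraries were found, by Euclidean distance on log2(CPM + 1). Nearness over 2 libraries is a description of level. Nearest to Mir143 were Mirlet7i at 56572 and 47210 CPM (distance 0.18), Mir10a at 37425 and 38542 CPM (0.49) and Mirlet7b at 32874 and 43514 CPM (0.64). Mirlet7i was higher in replicate 1 by 1.20-fold (1.19 to 1.21) and Mirlet7b lower by the ratio 0.755 (0.749 to 0.762), so the nearest genes did not all share the direction of Mir143. Nearest to Mir145a were Mir676 at 1017 CPM in both libraries (0.09), Mir425 at 1183 and 1107 CPM (0.16) and Mir532 at 1009 and 954 CPM (0.17). Nearest to Mir214 were Mir137 at 816 and 882 CPM (0.22), Mir497 at 795 and 794 CPM (0.23) and Mir18 at 696 and 731 CPM (0.27).

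The difference between the libraries was tested for each gene with 10 or more counts in both together, by an exact two-sided binomial test with Benjamini-Hochberg adjustment over all 413 such genes. The test compares these libraries on their reads, and says nothing of how far adrenal glands differ. Of all tested genes 55.4% passed, 26.6% higher and 28.8% lower in replicate 1. Of the 7 members 5 were tested, and 2 were higher, 1 was lower and 2 did not pass. With so few members, that is near the share of all tested genes. The median log2 ratio of replicate 1 over replicate 2 was 0.00 over the 5 members and -0.03 over all tested genes.

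Mir143 was higher in replicate 1 by 1.18-fold (1.17 to 1.19), with an adjusted p too small for the number format. Mir199b was higher by 1.90-fold (1.58 to 2.28, adjusted p = 2.36e-12 by the exact test). That ratio is of placed reads, and whether it would hold with reads mapping to several places was not tested. Mir214 was lower, with a ratio of 0.798 (0.755 to 0.844, adjusted p = 3.76e-15 by the exact test). These 3 genes kept their direction and passed under every alternative run.

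Mir145a had a ratio of 1.00 (0.955 to 1.05, adjusted p = 0.980 by the exact test) and did not pass. With unstranded counts its ratio was 1.10 and it passed, with an adjusted p of 0.000185 by the exact test. Its own counts were the same in that column, while the totals were 2122450 and 2670655 counts. Mir199a-2 had a ratio of 0.920 (0.619 to 1.36, adjusted p = 0.800 by the exact test) and did not pass. By placed reads, the members thus did not shift together. Mir143 passed and Mir145a of the same locus did not, with ratios within the pair whose intervals do not overlap between the libraries, and Mir199b and Mir214 passed in opposite directions.

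In size, the differences of Mir143 and Mir214 were near the median of this pair of libraries, and Mir145a was among the most even genes. At 100 CPM or more the median gene differed 1.25-fold between the libraries, with a median coefficient of variation of 15.9%. The coefficient of variation was 11.6% for Mir143 and 15.9% for Mir214, and 38.1% and 50.3% of the 189 genes had a smaller one. Mir199b, at a lower level, had 43.8%.

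**Figure D3:**
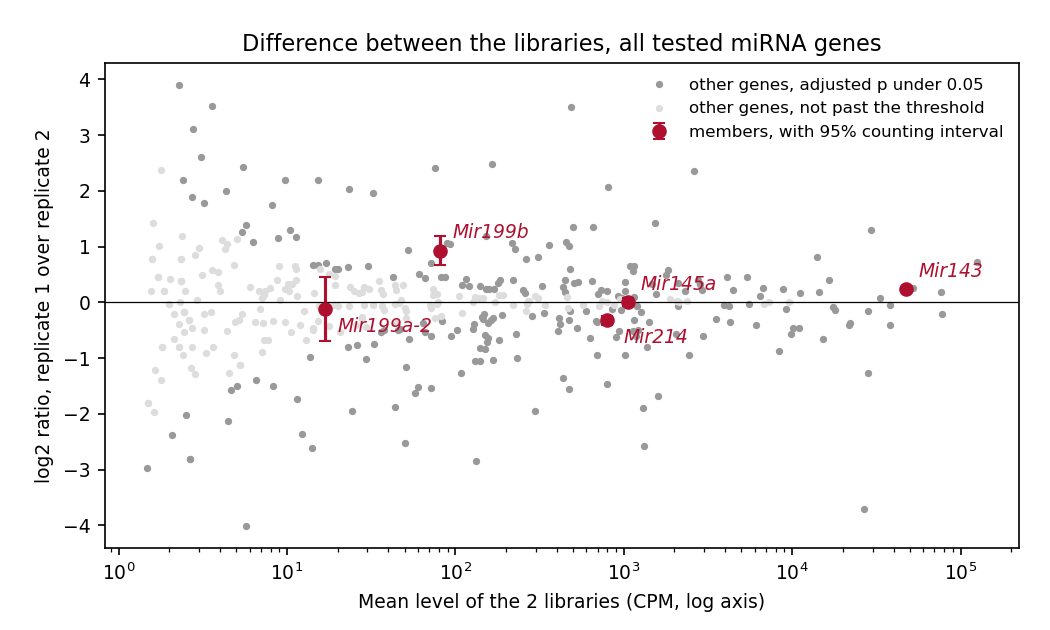
Log2 ratio of replicate 1 over replicate 2 against mean level in CPM (log axis) for the 413 tested miRNA genes, with the 5 tested members in red and their exact 95% counting intervals. Mir143 and Mir199b lie above 0, Mir214 below it, and the intervals of Mir145a and Mir199a-2 cross it.

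A list of 24 other miRNA genes linked to mesenchyme and smooth muscle was set beside the members. Of these, 23 have a row under the listed symbol and Mir497a has none. RefSeq gives mir-497a as another name of Mir497, which is among the genes nearest to Mir214 above and did not pass the test, and which was not counted in the list. All 23 were tested, and 5 were higher in replicate 1, 14 were lower and 4 did not pass, against 26.6% higher and 28.8% lower of all tested genes. Their median log2 ratio was -0.36. The summed level of the list was 4.96% of counts in replicate 1 and 6.01% in replicate 2, so the library with the higher sum was not that of the members. A stretch of 20 bases recurs in other miRNA hairpins for 14 of the 23, whose reads may in part be in no gene.

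The highest of that list were as follows. Mir23b, of a cluster known in vascular cells, was at 19151 CPM in replicate 1 and 24782 CPM in replicate 2. Mir21a, a miRNA known to rise in fibrosis, was at 7910 and 11784 CPM. Mir22 was at 7305 and 6119 CPM, and Mir100 at 3855 and 3984 CPM. Mir23b, Mir21a and Mir100 were lower in replicate 1 and Mir22 higher, by the exact test, with a ratio of 0.968 for Mir100. The 23 genes summed to 49566 CPM in replicate 1 and 60123 CPM in replicate 2. By placed reads, Mir143 alone thus exceeded them together in replicate 1 and not in replicate 2. The sides are unlike, since 14 of the 23 share a stretch and may lack reads, while Mir143 shares none. Whether this holds with the other reads placed was not tested.

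**Figure D4:**
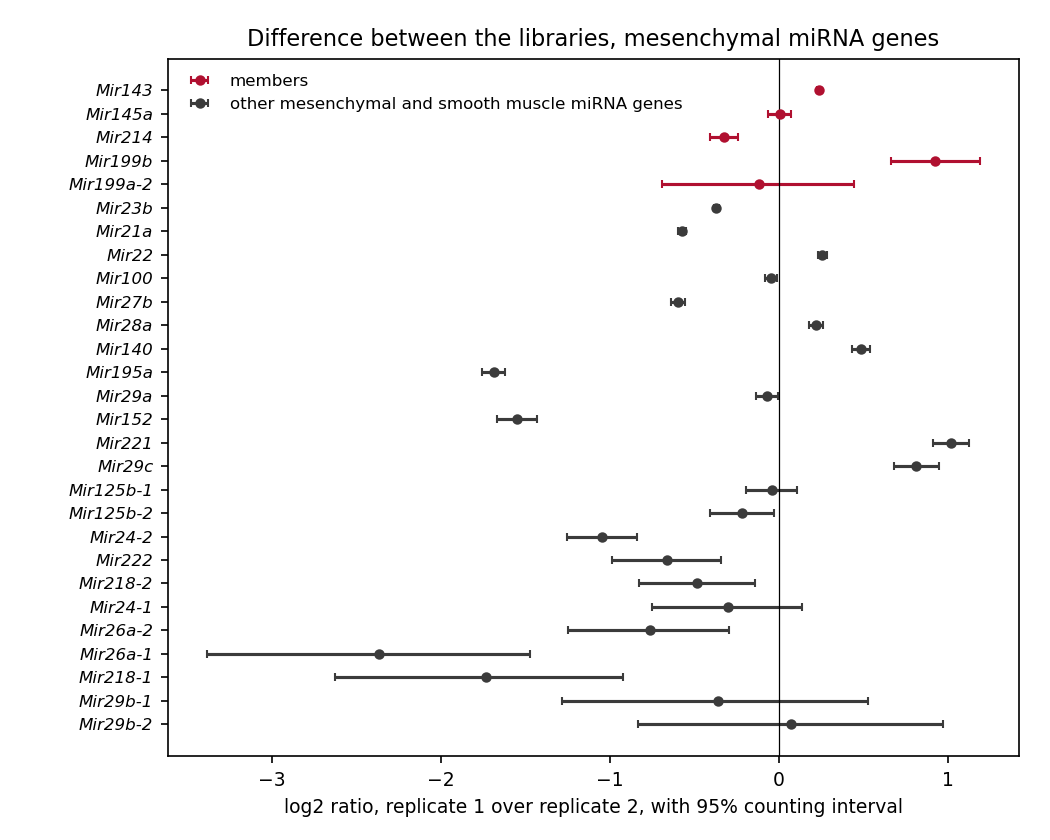
Log2 ratio of replicate 1 over replicate 2 for the 5 tested members (red) and 23 other mesenchymal and smooth muscle miRNA genes (grey), each ordered by mean level, with exact 95% counting intervals. The members lie on both sides of 0, and of the others 14 passed the test below it and 5 above it.

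Markers of other cell types are given to describe the libraries in which these levels were measured, and do not give the makeup of the tissue. In bulk tissue, fewer cells of a type and less miRNA per cell cannot be told apart. The list of striated muscle miRNAs summed to 10.9 CPM in replicate 1 and 14.1 CPM in replicate 2 over 10 genes. Of these, Mir133a-1, Mir133a-2, Mir133b and Mir1a-1 had no count in either library, but a 20-base stretch of 5 of the 10 hairpins recurs in other miRNA genes. Neuroendocrine miRNAs, known in the adrenal medulla, were present in both, with Mir375 at 26615 and 29592 CPM and a list sum of 31136 and 34282 CPM over 4 genes. No list used here marks the adrenal cortex.

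Several of these lists also differed between the libraries in their sums. The endothelial list of 2 genes, nearly all Mir126a, summed to 155649 CPM in replicate 1 and 94739 CPM in replicate 2. The red blood cell list of 3 genes summed to 43959 and 19202 CPM, and the white blood cell list of 5 genes to 4878 and 2610 CPM. These 3 sums were higher in replicate 1, as Mir143 and Mir199b were, but not each gene of the lists was. Of the endothelial genes Mir126b was lower in replicate 1, at 2.31 and 6.93 CPM (ratio 0.334). Of the white blood cell genes Mir223 was lower, at 31.1 and 89.5 CPM (ratio 0.347), and the other 4 were higher. Of the red blood cell genes Mir144, at 2093 and 2053 CPM (ratio 1.02), did not pass, and Mir451a, the highest of them, was at 41828 and 17126 CPM. The calls are by the exact test, and these genes are named after their values were seen. The hepatocyte miRNA Mir122 was at 3786 CPM in replicate 1 and 49474 CPM in replicate 2. The list of kidney and other epithelium, 10 genes, summed to 885 and 1916 CPM, with Mir203 at 697 and 1344 CPM. By the same test 7 of the 10 were lower in replicate 1 and 2 did not pass. Mir200c was higher, at 69.1 and 36.1 CPM (ratio 1.92). The part of these lists in the differences of Mir143, Mir199b and Mir214 was not tested. Without Mir122 in the totals the ratio of Mir143 was 1.12, that of Mir199b 1.81 and that of Mir214 0.761.

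**Figure D5:**
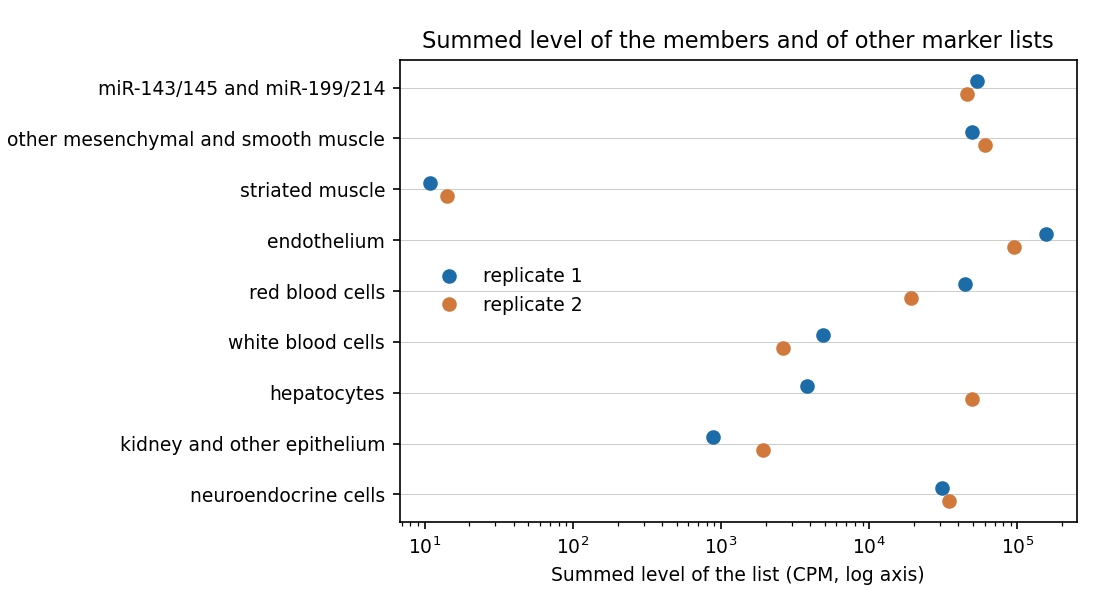
Summed level of the 7 members and of 8 other marker lists in replicate 1 (blue) and replicate 2 (orange), in CPM on a log axis. The members, at 53199 and 45553 CPM, lie below the endothelial list and above the white blood cell list in both libraries, with other lists between. In replicate 2 the other mesenchymal list, at 60123 CPM, and the hepatocyte list, at 49474 CPM, also lie above them. On this axis the hepatocyte list differs most between the libraries.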

How the data were processed

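Each of 2 libraries has 1 deposited file of read counts by miRNA gene, which are raw. The deposited notes name mm10 and GENCODE M21, while the sources used here do not name the aligner or counter. The files hold 2202 genes and 3 count columns, of which, from the values, the second counts the sense strand and was used. Summary rows, which name no gene, stayed out of the totals: assigned counts were 42.2% and 40.9% of the reads in replicates 1 and 2.

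All 2202 identifiers matched GENCODE M21. CPM, exact Clopper-Pearson, Poisson and conditional binomial intervals, and the exact binomial test (10 or more counts, adjusted p under 0.05) were computed with SciPy 1.17.1, statsmodels 0.14.6, pandas 2.3.3 and NumPy 2.4.6 under Python 3.11.15, and figures with matplotlib 3.10.9. Simulated data were used to check that the binomial test was computed rightly. They held counting error only, as the test assumes, so they cannot show how it behaves on these libraries. Scaling alternatives came from DESeq2 1.42.0 and edgeR 4.0.16 under R 4.3.3. With 2 libraries of 1 group no test of levels was made, and p-values measure reads of these libraries. Named genes are the 7 members, the 3 nearest in level to each member at 100 CPM or more, and the 4 most abundant of a list of other mesenchymal miRNAs. The members, lists and rules were chosen with earlier results of these data known.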

Additional observations from a re-analysis of the deposited data

Results flagged for a closer look

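Reads mapping to several places made up 27.5% of all reads in replicate 1 and 29.4% of those in replicate 2. No comparison above uses them, and there is no control sample to set them against. They bear on the Mir199 genes, since miR-199a-5p occurs in 2 hairpins and the 3p strand in 3. They are also in no gene, so the ranks and CPM of all genes, Mir143 among them, count placed reads only. With 2 libraries, a library far from others could not be looked for.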

How the results depend on the processing

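The alternatives were other scalings, totals, count columns, filters and detection limits, and each library alone. The summed share of the members, 4.94%, was 6.75% with unstranded counts, 2.05% of all reads of the file and 5.89% without other genes that share a stretch, since each changes the total. It ranged from 4.56% to 5.32% with 1 library left out. Unstranded counts moved the number of genes lower in replicate 1 from 119 to 74, against 110 and 139 higher, and the change of totals alone adds 0.14 to each log2 ratio. The near-even ratio of Mir145a, 1.00, was 0.990 with TMM, 0.956 without Mir122 in the totals and 0.977 without other genes that share a stretch. That of Mir199a-2, 0.920, was 1.01 with unstranded counts. None of these 4 passed. Leaving out 1 library, Mir145a over Mir143 ranged from 0.0207 to 0.0244 and Mir199a-2 over Mir214 from 0.0200 to 0.0231. No paired analysis was possible because there is 1 group. Counts of 49 and 61 for Mir199a-2, and fewer for Mir199a-1, limit what could be seen of those genes.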
